A study of Mus musculus with 24 samples.

Results

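The 10 genes described here, T, Mixl1, Eomes, Gsc, Gata4, Gata6, Sox17, Sox7, Foxa2 and Kdr, are markers of mesoderm and endoderm, the germ layers other than the ectoderm from which the nervous system forms. All 10 were found among the 21909 gene symbols of the deposited RNAseq tables. They address which markers of non-neural lineages are measurable when mouse embryonic stem cells (ESCs) are turned into neural progenitor cells (NPCs).

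In the gastrulating mouse embryo, cells pass through the primitive streak, where T, Mixl1, Eomes and Gsc are active, and become mesoderm or definitive endoderm. Sox17 and Foxa2 mark definitive endoderm, whereas Gata4, Gata6, Sox17 and Sox7 are also active in the extraembryonic endoderm of the yolk sac, and Kdr marks the mesoderm that gives rise to vessels and blood. Several of these genes have other sites of activity, among them Foxa2 in the floor plate of the neural tube, Gata4 and Gata6 in the heart, and Sox7 and Sox17 in endothelium.

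The study mapped nucleolus-associated domains (NADs), stretches of the genome in contact with the nucleolus, and measured RNA in the same 2 cell types. RNAseq was made from 3 ESC and 3 NPC samples, and 1 list of NADs per cell type was built from Nucleolar-DamID, in which a DNA methyltransferase fused to histone H2B and sent to the nucleolus marks the DNA that it touches. ESCs were of the E14 line and were grown on gelatin in 2i media with leukemia inhibitory factor at 1000 U/ml, the GSK3β inhibitor CHIR99021 at 3 µM and the MEK inhibitor PD0325901 at 1 µM, and their RNA came from 3 independent dishes. NPCs were made from ESCs over 8 days as embryoid bodies in suspension, in medium with 10% serum, and received 2 µM retinoic acid in the last 4 days. For Nucleolar-DamID, cells of both types carried H2B-Dam or H2B-Dam-NoLS transgenes, switched on for 15 h by doxycycline at 100 ng/ml together with Shield1 at 1 µM, and 2 samples per construct and cell type were made. The labels name no sorting of cells before RNA was taken, and fewer cells of a type and less RNA per cell cannot be told apart in any value below. The labels name no batch, and if ESCs and NPCs were prepared or sequenced apart, a batch would be confounded with the cell type. Values of 3 samples are given in the order of replicates 1, 2 and 3.

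The authors deposited expression as RPKM, reads divided by gene length in kb and by the depth of the sample in M reads (M for mega). The values of 97.8% of the 18184 genes above 0 with a known position went back to whole reads in all 6 samples, within 0.003 reads, when they were multiplied by the length of the whole gene with its introns. The depth behind the values was 34.1, 33.7 and 30.8 M reads in the ESC samples and 30.2, 27.3 and 32.3 M reads in the NPC samples. Since deposited RPKM understates genes with long introns, levels of different genes are set side by side below as exon RPKM, in which the recovered reads are divided by the length of the exons in GENCODE M21. The authors describe their counts as exon coverage. Reads that fell in introns, if any were counted, would make exon RPKM too high.

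ESC replicate 3 stood apart from the other ESC samples. Its correlation across genes, which are not independent replicates, was 0.979 with ESC replicate 1 and 0.980 with ESC replicate 2, against 0.999 between those and 0.998 to 0.999 among the NPC samples. Relative to the mean of ESC replicates 1 and 2, the median log2 ratio of ESC replicate 3 was 0.56 for 1128 genes shorter than 5 kb and -0.61 for 918 genes of 50 kb or more. Values with and without this sample are therefore given for each member that was tested.

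The cell type labels were checked on 8 genes of pluripotency and 10 genes of neural progenitors. Pou5f1, a core factor of pluripotency, had 130.0, 136 and 202 RPKM in ESC replicates 1, 2 and 3 and 0.0558, 0.0386 and 0.0651 RPKM in NPC replicates 1, 2 and 3. All 8 pluripotency genes (Pou5f1, Nanog, Zfp42, Klf4, Esrrb, Tfcp2l1, Tdgf1 and Fgf4) were lower in NPCs, and their median difference in log2(RPKM + 1) was -4.73. Sox11, a factor of neural precursors and early neurons, had 0.707, 0.689 and 0.532 RPKM in ESCs and 49.5, 51.6 and 54.5 RPKM in NPCs. Pax6, which the protocol uses to describe the progenitors, had 0.0134, 0.0167 and 0.00457 RPKM in ESCs and 1.55, 1.42 and 1.67 RPKM in NPCs. Among the neural genes, Pax6, Nes, Sox1, Hes5, Neurog2 and Sox11 were higher in NPCs, Fabp7 and Map2 were too low for the test, and Tubb3, a neuronal tubulin, was lower by a log2 difference of -0.69 (limma, adjusted p = 0.0019). Tubb3 was not called when each sample was scaled to the same, larger sum, where the pseudocount of 1 also weighed less (adjusted p = 0.058). The RNA of the NPC samples thus held neural transcripts and almost no transcripts of the core pluripotency factors.

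The members were split by direction between the primitive streak genes and the rest. T, Mixl1, Eomes and Gsc had their higher values in ESCs, and Gata4, Gata6, Sox17, Sox7, Foxa2 and Kdr had theirs in NPCs. The test was limma on log2(RPKM + 1) over 7835 genes with at least 1 RPKM in at least 3 of 6 samples, with Benjamini-Hochberg adjustment over all of them and a threshold of 0.05. Of the 10 members, 7 passed that filter, of which 6 were called higher in NPCs, where 36.9% of all tested genes were called higher. Gsc was called lower, as were 33.3% of all tested genes. T, Mixl1 and Eomes did not pass the filter and are given by their values. The 6 higher members passed through their NPC samples alone and Gsc through its ESC samples alone, so that they had to differ to be tested, and their count says nothing beyond their values. For each of the 10 members, the exact permutation test over samples gave p = 0.10, the smallest value that 3 against 3 samples allow.

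**Figure D1:**
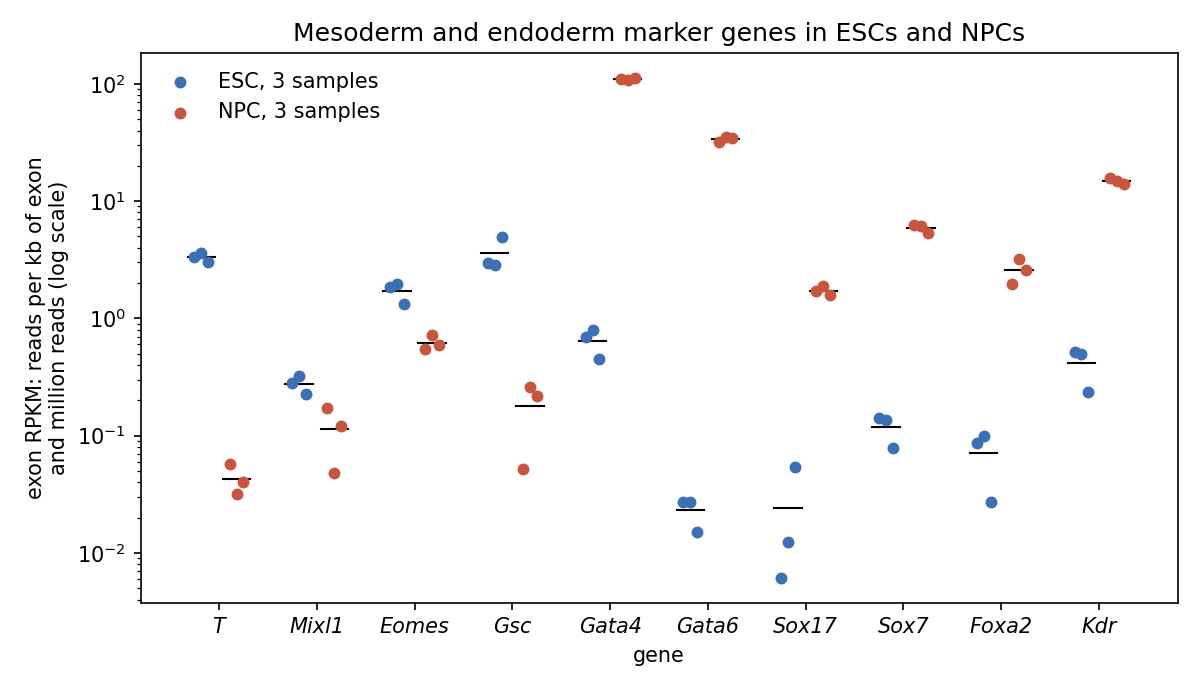
Level of each member in the 3 ESC samples (blue) and the 3 NPC samples (red), in exon RPKM (recovered reads per kb of exon and M reads) on a log axis; points are samples in the order of their replicate numbers and black lines are means. The points of ESCs and NPCs do not overlap for any of the 10 genes, with T, Mixl1, Eomes and Gsc higher in ESCs and the other members higher in NPCs.

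T, or brachyury (chr17:8434423-8442496 on GRCm38), is a T-box transcription factor of the primitive streak, nascent mesoderm and notochord. T had 0.964, 1.04 and 0.869 RPKM in ESC replicates 1, 2 and 3 and 0.0164, 0.00909 and 0.0115 RPKM in NPC replicates 1, 2 and 3. All 3 ESC samples were low but well measured, and all 3 NPC samples were close to 0, without overlap. The reads behind these values were 265, 284 and 216 in the ESC samples and 4, 2 and 3 in the NPC samples, and relative to depth T was 77.4-fold higher in ESCs (95% interval 40.5 to 170, from an exact conditional test on the reads that covers counting error only). Its level was 3.34 ± 0.303 exon RPKM in ESCs and 0.0430 ± 0.0131 exon RPKM in NPCs (mean ± SD, n = 3 samples each). The difference in log2(RPKM + 1) was -0.95.

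Eomes (chr9:118478212-118486132), another T-box factor, is needed for definitive endoderm and is also active in trophoblast and in intermediate progenitors of the cortex. Eomes had 0.979, 1.03 and 0.689 RPKM in ESC replicates 1, 2 and 3 and 0.289, 0.380 and 0.309 RPKM in NPC replicates 1, 2 and 3. The lowest ESC sample, replicate 3, lay above the highest NPC sample. The samples held 708 reads in ESCs and 230 in NPCs, and relative to depth Eomes was 2.80-fold higher in ESCs (95% interval 2.41 to 3.27). Eomes thus kept a measurable level in NPCs, at 0.621 ± 0.0910 exon RPKM against 1.72 ± 0.352 in ESCs, where T was almost lost.

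Mixl1 (chr1:180693043-180697034) is a homeobox factor of the primitive streak with a role in endoderm formation. Mixl1 had 0.162, 0.186 and 0.130 RPKM in ESC replicates 1, 2 and 3 and 0.0997, 0.0276 and 0.0698 RPKM in NPC replicates 1, 2 and 3. Both cell types were low, and the groups lay next to each other without overlap. The reads were 22, 25 and 16 in the ESC samples and 12, 3 and 9 in the NPC samples, which gave a 2.39-fold higher rate in ESCs (95% interval 1.47 to 4.00). With each sample scaled to the same sum of RPKM, the lowest ESC and the highest NPC sample of Mixl1 overlapped, and the mean was 1.84-fold higher in ESCs.

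Gsc, or goosecoid (chr12:104471209-104473330), is a homeobox factor of the anterior streak and prechordal mesoderm. Gsc had 1.79, 1.72 and 2.96 RPKM in ESC replicates 1, 2 and 3 and 0.0313, 0.156 and 0.131 RPKM in NPC replicates 1, 2 and 3. ESC replicate 3 had the highest value and NPC replicate 1, with 2 reads, the lowest, and the groups were far apart. Gsc fell in NPCs by a log2 difference of -1.49 (SE 0.148; limma, adjusted p = 0.00015), and by -1.32 without ESC replicate 3 (adjusted p = 2.9e-07). From 445 reads in ESCs and 20 in NPCs, the rate was 20.3-fold higher in ESCs (95% interval 13.0 to 33.5).

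The untested streak genes were also read from fits in which they could be tested. In planned fits on the same values, T, Eomes and Mixl1 were called lower without a filter (limma, adjusted p = 1.2e-05, 0.0029 and 0.016), and T and Eomes with at least 1 RPKM in any sample (adjusted p = 3.3e-06 and 0.0012). Without a filter, 7245 of 18360 tested genes were called higher and 4209 lower. With at least 1 RPKM in any sample, 3074 of 8412 were called higher and 2840 lower. With reads per exon length, where 43.0% of 11609 tested genes were called higher and 29.8% lower in NPCs, T was lower by -2.06 (limma, adjusted p = 4e-07), Eomes by -0.74 (adjusted p = 0.00075) and Gsc by -1.94 (adjusted p = 7.2e-05), whereas Mixl1 again did not pass the filter. With limma voom on the recovered reads, where 46.1% of 14289 tested genes were called higher and 28.0% lower, the log2 differences were -6.07 for T (adjusted p = 2.5e-06), -1.44 for Eomes (adjusted p = 0.001), -1.34 for Mixl1 (adjusted p = 0.027) and -4.43 for Gsc (adjusted p = 0.00028). The fits with exon length and with voom were added after the data had been seen.

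Gata4 (chr14:63198922-63271692) is a zinc finger factor of primitive and visceral endoderm and of heart precursors. Gata4 had 0.0375, 0.0424 and 0.0241 RPKM in ESC replicates 1, 2 and 3 and 5.85, 5.83 and 6.02 RPKM in NPC replicates 1, 2 and 3. ESC samples were near 0 and NPC samples were high and close to each other. The NPC samples held 12845, 11563 and 14155 reads of Gata4 against 93, 104 and 54 in the ESC samples, a 169-fold higher rate relative to depth (95% interval 149 to 192). Gata4 rose by 2.74 on the log2(RPKM + 1) scale (SE 0.052; limma, adjusted p = 1.9e-07), and by 2.73 without ESC replicate 3. Gata4 reached 110.0 ± 1.97 exon RPKM in NPCs, rank 253 of 21221 genes, so that 98.8% of the genes lay below it. Its gene spans 72771 bases, of which 3904 are exon, and deposited RPKM divides by the whole span. Reads in introns, if any were counted, would make its exon RPKM and its place among the genes too high.

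Gata6 (chr18:11052064-11085635), a related zinc finger factor, is among the first genes of the primitive endoderm. Gata6 had 0.00532, 0.00537 and 0.00294 RPKM in ESC replicates 1, 2 and 3 and 6.30, 6.93 and 6.82 RPKM in NPC replicates 1, 2 and 3. With 6, 6 and 3 reads the ESC samples were close to 0, and the NPC samples, with 6295, 6262 and 7300 reads, were uniformly high. Its rate was 1454-fold higher in NPCs, the largest ratio among the members (95% interval 882 to 2599), and its log2 difference was 2.93 (SE 0.060; limma, adjusted p = 1.9e-07), the same to 2 decimals without ESC replicate 3. Its level in NPCs was 34.0 ± 1.72 exon RPKM, above that of 93.9% of the genes.

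Sox17 (chr1:4490931-4497354) encodes an SRY-box factor of definitive and extraembryonic endoderm that is also active in arterial endothelium. Sox17 had 0.00457, 0.00923 and 0.0405 RPKM in ESC replicates 1, 2 and 3 and 1.27, 1.405 and 1.18 RPKM in NPC replicates 1, 2 and 3. ESC replicate 3, with 8 reads against 1 and 2 in the other ESC samples, was the highest ESC sample and still far below every NPC sample. The rate was 73.5-fold higher in NPCs (95% interval 40.8 to 148), and without ESC replicate 3, from 3 reads in the other ESC samples, 185-fold higher (95% interval 63.2 to 901). The log2 difference was 1.16 (SE 0.044; limma, adjusted p = 1.2e-06), or 1.18 without ESC replicate 3.

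Sox7 (chr14:63943673-63950732) belongs to the same Sox subfamily as Sox17 and is active in extraembryonic endoderm and in endothelium. Sox7 had 0.0666, 0.0630 and 0.0368 RPKM in ESC replicates 1, 2 and 3 and 2.90, 2.86 and 2.51 RPKM in NPC replicates 1, 2 and 3. The ESC samples were low, the NPC samples high, and the groups did not overlap. Sox7 rose by a log2 difference of 1.83 (SE 0.055; limma, adjusted p = 4.8e-07), or 1.82 without ESC replicate 3, and by reads its rate was 49.0-fold higher in NPCs (95% interval 35.7 to 69.2).

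Foxa2 (chr2:148042877-148046969), a forkhead factor of definitive endoderm, node, notochord and floor plate, had 0.0502, 0.0580 and 0.0159 RPKM in ESC replicates 1, 2 and 3 and 1.13, 1.85 and 1.51 RPKM in NPC replicates 1, 2 and 3. Within NPCs, Foxa2 was the least even of the members called higher, since NPC replicate 2 had the most and NPC replicate 1 the least of it, but every NPC sample lay above every ESC sample. The log2 difference was 1.25 (SE 0.100; limma, adjusted p = 5e-05), or 1.23 without ESC replicate 3, and the rate was 35.2-fold higher in NPCs (95% interval 21.8 to 60.9).

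Kdr (chr5:75932827-75978458), the VEGF receptor of lateral mesoderm and endothelium, had 0.102, 0.0981 and 0.0463 RPKM in ESC replicates 1, 2 and 3 and 3.12, 2.92 and 2.78 RPKM in NPC replicates 1, 2 and 3. ESC replicate 3 was the lowest of all samples, and the NPC samples formed a group of their own far above the ESC samples. Kdr rose by a log2 difference of 1.86 (SE 0.052; limma, adjusted p = 3.7e-07), or 1.84 without ESC replicate 3, and its rate was 35.3-fold higher in NPCs (95% interval 31.8 to 39.2). Its level in NPCs, 14.9 ± 0.878 exon RPKM, lay above that of 83.1% of the genes. Without ESC replicate 3, the test called 43.9% of all tested genes higher and 44.0% lower in NPCs, and the calls of the 7 tested members were the same.

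The order of the members was read from exon RPKM, and neighbours whose 3 samples overlapped in range were taken as not different. In NPCs the order from high to low was Gata4, Gata6, Kdr, Sox7, Foxa2, Sox17 and Eomes, each apart from the next, followed by Gsc, Mixl1 and T, whose neighbours overlapped. Sox7 stood at 5.90 ± 0.462, Foxa2 at 2.58 ± 0.615 and Sox17 at 1.73 ± 0.152 exon RPKM, above 66.9%, 55.8% and 51.9% of the genes. In exon RPKM, the members called higher in NPCs thus ran from rank 253 of 21221 genes, for Gata4, to the middle of the gene list, for Sox17. In ESCs the order began with Gsc, at 3.60 ± 1.16, and T, which overlapped, then Eomes, then Gata4, Kdr and Mixl1, which overlapped as neighbours, and ended with Sox7, Foxa2, Sox17 and Gata6, which also overlapped as neighbours. Gsc, T and Eomes lay above 65.3%, 64.4% and 57.9% of the genes in ESCs. The order depended on the scale. On the scale of deposited RPKM, Gata6 stood above Gata4 in NPCs, Kdr overlapped Sox7, Foxa2 overlapped Sox17, and T stood below Mixl1 without overlap. In ESCs on that scale Gsc stood above T without overlap, T overlapped Eomes, Mixl1 stood above Kdr without overlap, and Gata4 was at rank 8 in place of rank 4. Summed over the 10 members, the exon RPKM was 9.97, 10.4 and 10.4 in the ESC samples and 168, 171 and 172 in the NPC samples. Gata4 was the most abundant in NPCs.

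For each tested member, the 3 tested genes with the most similar pattern were found by the mean absolute difference over the 6 samples, in log2(RPKM + 1) centred on each gene's own mean. Nearest to Gsc were Bcas2 (0.0238), Aunip (0.0287) and Spc24 (0.0351), and like Gsc they were highest in ESC replicate 3. The genes closest to Gata4 were Zfp362 (0.0299), Hmga2 (0.0306) and Cplx2 (0.0337), and those closest to Gata6 were Aplnr (0.0162), Nsmf (0.0174) and Sfrp2 (0.0254). Aplnr, the apelin receptor of mesoderm and endothelium, was at 0 in all ESC samples. Sox17 was most like Lgals3bp (0.02), Tcea2 (0.0262) and a gene that the deposited tables list under a date in place of its symbol (0.0279). The pattern of Sox7 was nearest to Arhgef5 (0.0122), Slc2a4 (0.0233) and Dsc2 (0.0243). For Foxa2, whose NPC samples spread most among the members called higher, the nearest genes were Cep131 (0.0299), Six2 (0.0367) and Lhx3 (0.0451), the latter a homeobox factor of motor neurons. Bcl2l11 (0.0182) and Cdh11 (0.0229) were among the 3 genes closest to Kdr.

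To place the members among other genes of their lineages, 5 lists with 81 further marker genes were read from the same test. Of these, 34 were tested, 25 were higher in NPCs, 7 were lower and 2 were tested without a call, beside the 36.9% and 33.3% of all tested genes called higher and lower. The median difference in log2(RPKM + 1) over all 81 genes was 0.18, against 0.0099 over the 18360 genes above 0 in any sample. Of the 34 tested genes, 21 reached 1 RPKM in NPC samples alone and 5 in ESC samples alone, so that they had to differ to be tested, and the counts of calls in the lists say nothing beyond the genes' values. Whether the lists differ from each other was not tested.

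Cardiac and somitic mesoderm was represented by 17 genes with a median difference of 1.14. The test took in 9 of them, all called higher in NPCs, but 8 of these passed the filter through their NPC samples alone. Foxf1, a forkhead factor of lateral plate mesoderm, was at 0 in all 3 ESC samples and had 29.1, 27.3 and 23.8 RPKM in NPC replicates 1, 2 and 3. Its rate was at least 3289-fold higher in NPCs, against a floor of 3 reads over the ESC group. Foxc2, a forkhead factor of paraxial mesoderm, had 0.0108, 0.0544 and 0.0358 RPKM in ESCs and 21.4, 29.3 and 26.4 RPKM in NPCs, a log2 difference of 4.68 (SE 0.123; limma, adjusted p = 2.8e-07). Both forkhead genes were near or at 0 in ESCs and were the 2 highest genes of the list in NPCs by RPKM. Osr1, of intermediate and lateral mesoderm, differed by 2.396 (SE 0.067; adjusted p = 3.7e-07), and Hand2, of heart and lateral mesoderm, by 2.19 (SE 0.065; adjusted p = 4.7e-07). Myl7, the atrial myosin light chain, had 7.93, 13.5 and 14.7 RPKM in NPCs and was already present in ESCs at 1.93, 2.02 and 3.60 RPKM. Summed over the list, the exon RPKM was 9.92, 10.7 and 17.9 in the ESC samples and 172, 208 and 199 in the NPC samples. Myl7 was the most abundant in ESCs and had the highest mean in NPCs, where its samples overlapped those of Foxf1. Nkx2-5 and Hand1, early heart genes, stayed below 0.05 RPKM in all 6 samples. Tbx5 was among the genes called higher (log2 difference 1.42, SE 0.038; limma, adjusted p = 3.2e-07). Of the genes not tested, Mef2c, Isl1, Tbx20, Myl4 and Tnnt2 were higher in NPCs without overlap. Their rates were 954-fold, 19.3-fold, 5.57-fold, 6.12-fold and 3.32-fold higher. Nkx2-5, Hand1 and Tcf15, also not tested, overlapped between the groups. The part of these genes in the values of Gata4, Gata6 and Kdr was not tested.

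Endothelial and blood markers lay on both sides of 0, with a median difference of 0.60 over 16 genes. The 6 that were tested, Hba-x, Hbb-bh1, Tie1, Esam, Gata2 and Flt4, were called higher in NPCs, and all 6 passed the filter through their NPC samples alone. Tie1, a receptor of endothelium, had 0.0218, 0.0141 and 0.00517 RPKM in ESCs and 2.57, 2.85 and 2.67 RPKM in NPCs, a log2 difference of 1.87 (SE 0.044; limma, adjusted p = 2.2e-07). The embryonic globin genes Hba-x and Hbb-bh1, made in primitive red cells, were at 0 in all 3 ESC samples. In NPC replicates 1, 2 and 3, Hba-x had 4.17, 6.01 and 6.71 RPKM and Hbb-bh1 had 3.74, 5.62 and 7.28 RPKM, rates at least 318-fold and 280-fold higher than the floor of 3 reads over the ESC group. All NPC samples held both globins, with the least in replicate 1. Pecam1, an adhesion molecule of endothelium that ESCs also make, was the most abundant gene of the list in ESCs in exon RPKM and had its higher values there, with 1.21, 1.17 and 0.929 RPKM in ESCs and 0.496, 0.407 and 0.396 RPKM in NPCs. It did not pass the filter, and with reads per exon length it was lower by -1.23 (limma, adjusted p = 0.00023). Etv2, a factor of blood and vessel precursors, was not tested either and had 0.683, 0.769 and 1.71 RPKM in ESCs and 0.237, 0.459 and 0.36 RPKM in NPCs, with ESC replicate 3 the highest. It was lower by -0.84 with reads per exon length (limma, adjusted p = 0.021) and was not called without a filter (adjusted p = 0.052). Tek, Vwf and Gata1 overlapped between the groups. Flt1, Lmo2, Tal1 and Runx1, not tested either, were higher in NPCs without overlap. Their rates were 453-fold, 44.5-fold, 42.1-fold and 7.35-fold higher. Cdh5, the cadherin of endothelium, was also not tested, with a mean of 0.0047 exon RPKM in ESCs and 11.3 exon RPKM in NPCs. The summed exon RPKM was 28.9, 28.3 and 23.6 in the ESC samples and 89.7, 93.8 and 95.9 in the NPC samples. Hbb-bh1 had the highest mean in NPCs, at 13.8, and its samples overlapped those of Cdh5, Tie1 and Hba-x. The part of endothelial and blood transcripts in the values of Kdr, Sox7 and Sox17 was not tested.

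**Figure D2:**
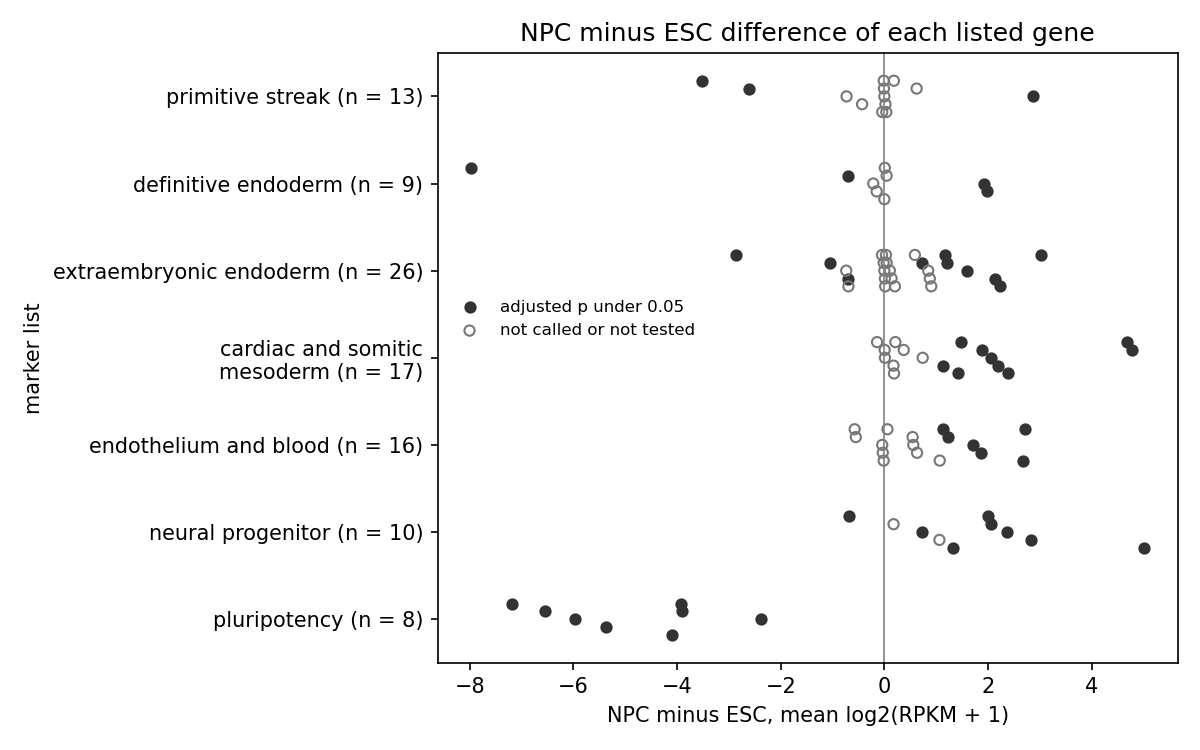
Difference between NPCs and ESCs in mean log2(RPKM + 1) for each gene of 5 lineage lists and of the neural progenitor and pluripotency lists; filled points had an adjusted p under 0.05 and open points were not called or not tested, and vertical offsets only separate points. Called genes of the cardiac and endothelial lists, most of which passed the filter through NPCs alone, all lie to the right of 0, whereas those of the streak and both endoderm lists lie on both sides.

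Extraembryonic endoderm markers were mixed. Of 26 genes, 12 were tested, of which 7 were higher and 3 lower in NPCs, and the median difference over the 26 genes was 0.12. Serpinh1, a collagen chaperone, differed by 3.03 (SE 0.097; limma, adjusted p = 6.2e-07), and the basement membrane collagens Col4a1 and Col4a2 by 2.14 and 1.59 (adjusted p = 2.2e-07 and 1.9e-07). Pdgfra, a receptor of primitive endoderm that is also active in mesoderm, had 0.0243, 0.0213 and 0.0120 RPKM in ESCs and 5.06, 3.32 and 3.21 RPKM in NPCs, a log2 difference of 2.23 (SE 0.141; adjusted p = 1.5e-05). Serpinh1, the most abundant gene of the list in NPCs, was not low in ESCs, with 10.0, 10.6 and 10.1 RPKM against 85.2, 92.3 and 94.7 RPKM in NPCs. Among defining genes of visceral endoderm, Apoa1, an apolipoprotein, had 0.0311, 0.0314 and 0.121 RPKM in ESCs and 1.37, 1.46 and 1.35 RPKM in NPCs, a log2 difference of 1.17 (limma, adjusted p = 1.4e-06) and a mean of 2.12 exon RPKM in NPCs. Dab2, an endocytic adaptor with a long gene, had 0.855, 0.784 and 0.787 RPKM in NPCs and was not tested, but reached 15.5 exon RPKM in NPCs against 0.110 in ESCs, a log2 difference of 3.90 with reads per exon length (limma, adjusted p = 1.4e-07). Other such genes had lower levels than Dab2 in NPCs. Afp had 0.0329, 0.0222 and 0.0102 RPKM and Ttr 0.154, 0.141 and 0.160 RPKM in NPC replicates 1, 2 and 3, and both were at 0 in all ESC samples. Against the floor of 3 reads over the ESC group, their rates were at least 12.8-fold and 45.4-fold higher in NPCs. In exon RPKM, the NPC means were 0.117 for Afp, 1.16 for Ttr and 0.593 for Hnf4a, a regulator of visceral endoderm, and Apoc2 was at 0 in all NPC samples.

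Apoe, the most abundant gene of the list in ESCs, fell from 168, 182 and 308 RPKM in ESC replicates 1, 2 and 3 to 21.3, 30.9 and 34.5 RPKM in NPC replicates 1, 2 and 3, a log2 difference of -2.86 (SE 0.288; limma, adjusted p = 0.00016). Fst, which binds activin, differed by -1.06 (adjusted p = 1.7e-05). Lama1, a laminin chain, differed by -0.70 (adjusted p = 0.024), a call that was lost when ESC replicate 1, ESC replicate 2 or any NPC replicate was left out and when each sample was scaled to the same, larger sum (adjusted p = 0.17). Lamc1 and Nid1, of the basement membrane, were not called, with ESC replicate 3 below the NPC samples and the other ESC samples above them, and were called lower without ESC replicate 3. Summed over the list, the exon RPKM was 601, 629.9 and 627 in the ESC samples and 718, 737 and 752 in the NPC samples. The part of this list in the values of the members was not tested.

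Definitive endoderm markers had no common direction. Of 9 genes, 4 were tested, 2 were higher and 2 lower in NPCs, and the median difference over the 9 genes was 0.00. It was 0.0013 with genes at 0 in all samples of a cell type set to their floor there. That value is the one of Cer1, whose floors in ESCs and NPCs differ only by depth. Foxa1, a forkhead relative of Foxa2, had 0.00467, 0.0141 and 0.00517 RPKM in ESCs and 2.39, 3.41 and 2.79 RPKM in NPCs, a log2 difference of 1.93 (SE 0.095; limma, adjusted p = 4.4e-06). Its highest NPC sample was replicate 2, as for Foxa2. Cxcr4, a chemokine receptor that neural progenitors also carry, differed by 1.99 (SE 0.127; adjusted p = 1.6e-05) and was the most abundant gene of the list in NPCs. Trh, which encodes thyrotropin-releasing hormone, had 313, 334 and 308 RPKM in ESCs and 0.410, 0.255 and 0.167 RPKM in NPCs, a log2 difference of -7.97 (SE 0.107; adjusted p = 1.4e-07). Hhex, a factor of anterior endoderm, was lower by -0.70 (SE 0.068; adjusted p = 0.00013). Cer1, an inhibitor secreted by anterior endoderm, was at 0 in all 6 samples, and Nkx2-1 was at 0 in all ESC samples with a rate at least 5.13-fold higher in NPCs. The summed exon RPKM was 589.7, 628 and 580.3 in the ESC samples, where Trh made up most of it. In the NPC samples it was 18.9, 18.1 and 14.7, with means of 10.2 for Cxcr4 and 0.519 for Trh. The part of these genes in the values of Sox17 and Foxa2 was not tested.

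Other primitive streak genes divided in the same test. Of 13 genes, 3 were tested, 1 was higher and 2 were lower in NPCs, and the median difference over the 13 genes was -0.0075. Nodal, the signal that drives the streak and that ESCs also make, had 10.9, 10.9 and 11.5 RPKM in ESCs and 0.0585, 0.0548 and 0.0462 RPKM in NPCs, a log2 difference of -3.52 (SE 0.064; limma, adjusted p = 1.9e-07). Sp5, a target of Wnt signalling, had 8.58, 10.0 and 9.75 RPKM in ESCs and 0.579, 0.758 and 0.806 RPKM in NPCs (log2 difference -2.61, SE 0.094; adjusted p = 1e-06). Both genes were thus higher in the cell type in which T, Eomes and Gsc were higher. The ESC medium held CHIR99021, which inhibits GSK3β and activates Wnt signalling, and medium and cell type cannot be told apart in this design. Lhx1, a LIM homeobox factor of anterior mesendoderm, kidney and spinal interneurons, went the other way, with 0.00405, 0.00818 and 0 RPKM in ESCs and 6.01, 5.99 and 7.07 RPKM in NPCs (log2 difference 2.87, SE 0.075; adjusted p = 2.8e-07). Msgn1, a gene of presomitic mesoderm, was at 0 in all 6 samples, and Mesp1 had at most 0.0840 RPKM in any sample. Tbx6, not tested, had 0.173, 0.124 and 0.135 RPKM in ESCs and 0.765, 0.801 and 0.721 RPKM in NPCs. With reads per exon length, Tbx6 was higher by 1.04 (limma, adjusted p = 4e-06). Also untested, Wnt3, Wnt3a and Evx1 were higher in NPCs and Cdx1, Cdx2 and Fgf8 lower, without overlap. Mesp1 and Mesp2 overlapped between the groups. The summed exon RPKM was 57.9, 60.5 and 67.3 in ESC replicates 1, 2 and 3, with Nodal the most abundant at 39.0, and 15.7, 16.3 and 18.6 in NPC replicates 1, 2 and 3, with Lhx1 the most abundant at 11.3. The part of this list in the values of T, Mixl1, Eomes and Gsc was not tested.

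For comparison, the summed exon RPKM of the 10 neural genes was 43.4, 49.2 and 50.4 in ESC replicates 1, 2 and 3, with Tubb3 the most abundant at 41.3, and 139, 142 and 147 in NPC replicates 1, 2 and 3, with Sox11 the most abundant at 51.9. Hes5 and Neurog2 were at 0 in all ESC samples. The members' sums in NPCs, of which Gata4 made up most, were above those of the neural list in exon RPKM. On the scale of deposited RPKM the order was the reverse, with sums of 21.02, 22.4 and 21.3 for the members and 96.9, 102 and 104 for the neural list in the NPC samples. The sums of the 8 pluripotency genes were 1444, 1445 and 1462 in ESCs and 4.73, 4.26 and 4.44 in NPCs. Klf4 was the most abundant in NPCs. Pou5f1 had the highest mean in ESCs, and its samples overlapped those of Nanog and of Zfp42. The median differences were 1.66 for the neural list and -4.73 for the pluripotency list, against 1.21 for the 10 members.

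The members were then set against the NADs, to ask whether the genes that differ between the cell types also differ in their place at the nucleolus. The authors deposited 1769 NADs for ESCs and 1447 for NPCs, each with a score of their own that carries no replicate values. Of the 10 members, 1 overlapped a NAD in ESCs, where 27.1% of 21432 genes did, and 1 overlapped a NAD in NPCs, where 21.6% did. The member in ESCs was Sox7, in a NAD from 63600016 to 64301770 on chromosome 14 with a length of 702 kb and a score of 0.0063, rank 1763 of 1769. In NPCs, Sox7 lay 949 kb from the nearest NAD. Sox7 was low in ESCs, where it was in a NAD, and higher in NPCs, where it was not.

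Sox17 showed the opposite combination. It overlapped a NAD of NPCs from 3000193 to 5499979 on chromosome 1, 2499.8 kb long with a score of 0.0361, rank 1045 of 1447, and in that cell type its RNA was higher. In ESCs, Sox17 lay in a gap between NADs that end at 4300248 and start at 4701252, 191 kb from the nearer one. The other 8 members overlapped no NAD in either cell type. Their nearest NADs in ESCs were 220.4 kb (Kdr) to 943 kb (Foxa2) away, and in NPCs 222 kb (Kdr) to 4414 kb (Eomes) away. Neither Sox7 nor Sox17 overlapped a NAD when only NADs at or above the median score of their list were kept. At that setting, 16.5% of 21432 genes overlapped a NAD in ESCs and 12.3% in NPCs. The NAD lists were not tested for a difference between cell types at these genes.

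Gata4 and Sox7 are neighbours on chromosome 14, 672 kb apart with 6 protein-coding genes between them. Gata4 lay 328 kb from the ESC NAD that holds Sox7. Of the genes between them, Tdh, which encodes threonine dehydrogenase of ESC metabolism, had 41.3, 42.9 and 53.8 RPKM in ESC replicates 1, 2 and 3 and 0.0257, 0 and 0.0185 RPKM in NPC replicates 1, 2 and 3. Tdh was thus high where both Gata4 and Sox7 were low. Mtmr9 had 1.44 to 2.37 RPKM in all 6 samples, and Blk, Fam167a, Xkr6 and Pinx1 were below 0.5 RPKM in every sample. These genes were named after their values were seen.

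**Figure D3:**
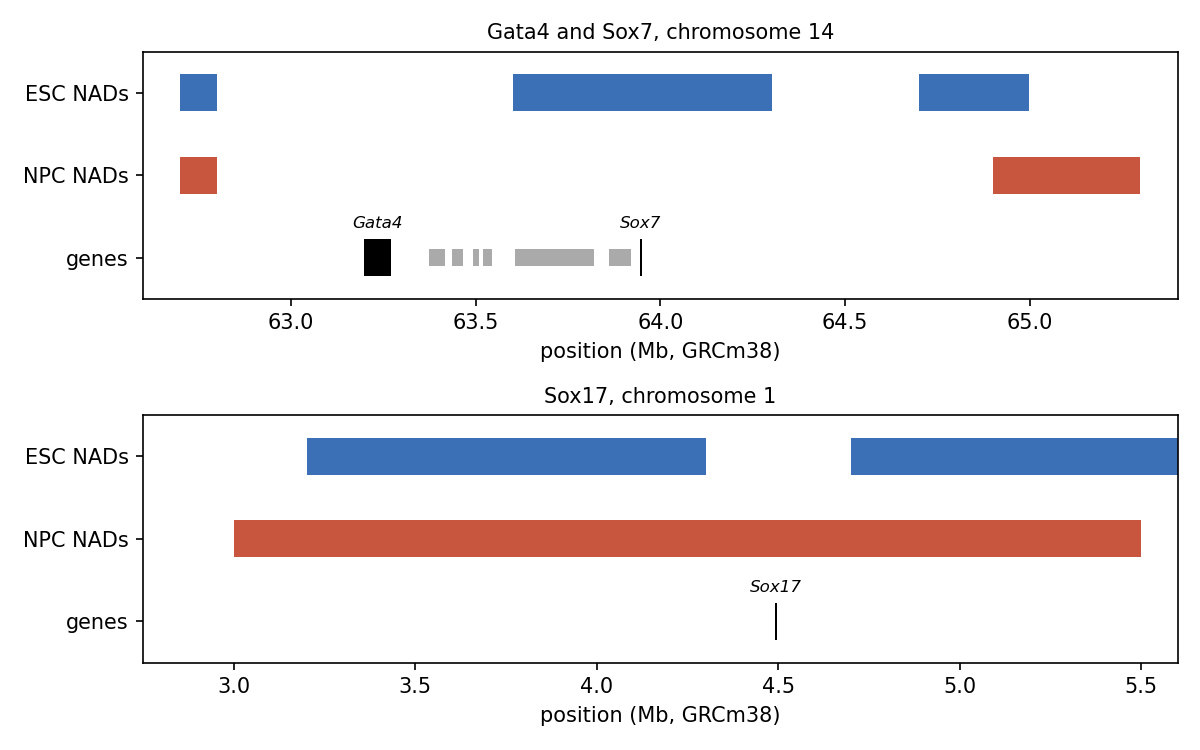
Maps of GRCm38 with NADs of ESCs (blue), NADs of NPCs (red), members (black) and the protein-coding genes between Gata4 and Sox7 (grey), along chromosome 14 (top) and chromosome 1 (bottom) in Mb. Sox7 lies inside a NAD of ESCs only, and Sox17 lies inside a NAD of NPCs only.

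On the other strand, Gm33460 overlaps Eomes, 1010001N08Rik overlaps Gata6 and Gm37587 overlaps Sox17. The deposited tables give no values for these genes under their symbols, and how strand was used in the counts is not known, so their reads and those of the members cannot be told apart.

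Promoter sequences were taken from RefSeq (GRCm38.p6), which matched 5 of the 10 members: T, Eomes, Gsc, Foxa2 and Kdr. Mixl1, Gata4, Gata6, Sox17 and Sox7 were not in the table. The window of Gsc lies in an annotated noncoding gene and is not printed. The 150 bases before the RefSeq start, or before the GENCODE gene where that reaches further, are shown for 2 members that were higher in ESCs, T and Eomes, and for 2 that were higher in NPCs, Foxa2 and Kdr. Capitals mark matches on either strand to motifs that were chosen after the sequences had been seen: the TATA box TATAA, the T-box half-site AGGTGT, the TCF/LEF motif TCAAAG, the GATA motif AGATAA, the forkhead motif TGTTTA and the CCAAT box.
T, chr17:8434273-8434422, plus strand: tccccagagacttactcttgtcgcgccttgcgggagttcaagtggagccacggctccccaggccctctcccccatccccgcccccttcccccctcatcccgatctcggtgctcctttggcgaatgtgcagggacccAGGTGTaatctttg
Eomes, chr9:118478039-118478188, plus strand: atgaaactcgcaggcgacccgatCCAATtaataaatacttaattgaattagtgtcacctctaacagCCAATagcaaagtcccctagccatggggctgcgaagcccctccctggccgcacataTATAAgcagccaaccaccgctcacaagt
Foxa2, chr2:148046970-148047119, minus strand: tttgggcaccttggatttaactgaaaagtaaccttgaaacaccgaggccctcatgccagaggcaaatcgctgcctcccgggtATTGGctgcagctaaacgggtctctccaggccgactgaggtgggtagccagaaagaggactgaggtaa
Kdr, chr5:75978459-75978608, minus strand: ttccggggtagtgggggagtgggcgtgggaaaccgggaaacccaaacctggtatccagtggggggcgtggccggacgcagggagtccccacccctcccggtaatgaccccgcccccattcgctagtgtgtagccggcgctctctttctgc

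Distances count from the RefSeq start, which for Eomes lies before the GENCODE start given above. The T window held AGGTGT 14 bases before the start, a motif that 6.86% of 32851 windows of the same length hold. Eomes had TATAA 28 bases before the start, as 14.2% of the windows do, and CCAAT at 127 and 84 bases, a motif in 24.5% of the windows. Foxa2 had ATTGG, the reverse complement of CCAAT, 68 bases before the start. The Kdr window held none of the 6 motifs. The TCF/LEF, GATA and forkhead motifs, which 7.93%, 5.65% and 6.93% of all windows hold, were in none of these 4 windows. A match is a description of letters and not a binding site.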

How the data were processed

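RNAseq of 3 ESC and 3 NPC samples and the NAD lists were used; HiC and ChIPseq were not analysed here. Per the labels and the paper, the authors ran FastQC, SortMeRNA against rRNA reads and Trimmomatic, mapped reads to mm10 by STAR and deposited RPKM per gene; the labels name Subread 1.4.6-p4 and Bowtie2 2.3.4.3. Labels and paper name different library kits, so the use of strand is not known. For NADs, the authors deposited 1 score per domain.

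A symbol on several of the 22064 lines was kept as the line with the highest mean. Of 6629 genes used to test the length behind RPKM, 91.7% gave the same total within 1% with the gene span and 0.754% with exons. Reads were recovered for 17778 genes. The test used R 4.3.3 and limma 3.58.1 (lmFit, eBayes with trend) on log2(RPKM + 1), with at least 1 RPKM in at least 3 samples and Benjamini-Hochberg adjustment. Other steps used Python 3.11.15, matplotlib 3.10.9, scipy 1.17.1, numpy 2.4.6 and pandas 2.3.3. On simulated reads, the test called 100 of 100 genes changed 2-fold and 100 of 100 changed 4-fold. It also called 17 unchanged genes, with 7017 genes tested. All simulated samples had the same spread and none stood apart as ESC replicate 3 does, so this does not show how the test performs here. Positions came from GENCODE M21. Intervals and floors (3 reads over a group) cover counting error only.

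Members and lists were chosen with earlier results of these data known. Named genes were all members, the genes of the neural and pluripotency lists, in every other list the 4 largest called rises, the 3 largest called falls and the most abundant gene of each cell type, and the 3 genes most like each tested member. Of the genes under this rule, 2 are not reported here. Apoa1, Dab2, Afp, Ttr, Hnf4a, Nkx2-5, Hand1, Tbx6, Mesp1, Gata2, Flt4, Cdh5, Etv2, Tek, Vwf, Gata1, Lamc1, Nid1 and other listed genes at 0 were named after their values were seen. So were Tbx5, Mef2c, Isl1, Tbx20, Myl4, Tnnt2, Tcf15, Flt1, Lmo2, Tal1, Runx1, Wnt3, Wnt3a, Evx1, Cdx1, Cdx2, Fgf8 and Mesp2. The alternatives were other pseudocounts, filters and scalings, single samples left out, a replicate block, other NAD overlaps and, chosen after seeing the data, reads per exon length and voom on recovered reads.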

Additional observations from a re-analysis of the deposited data

How the results depend on the processing

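The 7 tested members kept their direction and their call in all 112 refits (7 genes under 16 alternatives), with adjusted p of at most 0.0018, the highest for Gsc. Gsc lay between -4.43 and -1.32 and Gata6, the widest, between 2.91 and 10.43. Of 39 other named genes, 617 refits kept the call and 7, of Lama1 and Tubb3, lost it, without a reversal. Replicate numbers do not pair ESC with NPC samples (correlations across genes of 0.114, -0.0827 and 0.0323 for equal numbers), and with a replicate block 2754 genes were called higher and 2460 lower.

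Called genes, 2894 higher and 2606 lower in NPCs, came to 7245 and 4209 without a filter, 6581 and 3998 with voom and 4990 higher with exon length, where more genes are tested. With each sample scaled to the same, larger sum, where the pseudocount of 1 also weighs less, they came to 3521 and 1585, and the median of all tested genes moved by 0.43. With median-of-ratios scaling they came to 3382 and 2067, and it moved by 0.15. With a pseudocount of 0.1 alone it moved by 0.02. With 1 replicate left out, between 2517 and 3437 were higher and between 2093 and 3447 lower.

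Members called lower, 1 at first, were 4 without a filter, 3 with at least 1 RPKM in any sample, 3 with exon length and 4 with voom, since more of them are tested. Of all tested genes, 4209 of 18360 were called lower without a filter and 2840 of 8412 with at least 1 RPKM in any sample. The shares called lower were 29.8% with exon length and 28.0% with voom. Lineage genes called higher (25) came to 50 without a filter, 38 with exon length and 48 with voom, and those called lower (7) to 14, 11 and 14. Of all tested genes, 7245 of 18360 were called higher without a filter, 43.0% with exon length and 46.1% with voom, beside the shares called lower given above. No member lay in a NAD at or above the median score in either cell type, 0 and 0, where fewer NADs are counted. Of 21432 genes, 16.5% overlapped such a NAD in ESCs and 12.3% in NPCs. Depth limits T, Gsc and Mixl1 in NPCs, with 9, 20 and 24 reads, and Sox17, Gata6, Foxa2 and Sox7 in ESCs, with 11, 15, 17 and 39 reads.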
